A study of Mus musculus with 12 samples.

Results

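The genotype difference in kidneys that had a sham operation was examined over all genes on the array, TLR4 null against wild type. The kidneys were chosen by their sample titles, which gave 3 TLR4 null and 3 wild-type sham kidneys, 6 of the 12 in the series. Wild-type mice were of strain C57BL/10 and genotype WT. TLR4 null mice were of strain C57BL/10ScNJ, genotype TLR4-/-. All were males 8 weeks old, bought from the Jackson Laboratory, and all had the right kidney removed under isoflurane. In sham mice the clip was laid beneath the pedicle of the left kidney without closing it, and the kidney was taken at the 4 h time point. The other 6 kidneys, 3 of each genotype, had the left pedicle clamped for 23 min and were taken after 4 h of reperfusion. Sham kidneys are therefore the remaining kidneys of operated mice with a fresh nephrectomy, not kidneys of untouched mice. Wild type and TLR4 null were separate purchased strains and not littermates, so the missing receptor and any other difference between the strains or their housing cannot be told apart. The labels name the arrays of a group biological replicates.

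TLR4 is a receptor on macrophages, endothelium and tubular epithelium that recognises bacterial lipopolysaccharide together with its partners MD-2 (Ly96) and CD14. It signals through the adaptors MyD88 and TRIF to NF-kB, which drives inflammatory cytokines and chemokines, and to interferon regulatory factors, which drive interferon and the genes it induces. Molecules released from damaged tissue have been proposed as further ligands, and C57BL/10ScNJ mice carry a spontaneous deletion of the Tlr4 gene. The adult kidney has few dividing cells, and its collagens are made mainly by interstitial and vascular cells.

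Each value is a signal from an expression array, taken as log2(signal + 15), and a difference is TLR4 null minus wild type on that scale with its standard error (n = 3 per genotype). Because 15 was added, the scale understates the fold of genes with low signals. Of 14316 genes tested with limma, those with an adjusted p under 0.05 are called lower or higher. Median signals ran from 61.3 to 77.6 on the 6 sham arrays. Log2 values of sham arrays correlated across genes at 0.969 to 0.979 within a genotype and at 0.966 to 0.976 between genotypes. The 10 measured kidney-defining markers had summed signals between 80104 and 97782 in wild type and between 91018 and 100245 in TLR4 null, and 0 of the 10 were called.

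Tlr4 itself was checked first. Its probe set 1418162_at gave 65.6, 94.7 and 70.1 in wild-type sham kidneys and 3.38, 1.22 and 1.02 in TLR4 null sham kidneys. The genotypes were far apart on this probe set, and the difference was -2.43 ± 0.32 (limma, adjusted p = 0.00738 over 30304 probe sets). Probe set 1418163_at, the brightest for the gene, gave 73.5, 72.9 and 90.3 in wild type and 59.6, 6.33 and 47.6 in TLR4 null. Its groups did not overlap either, but the TLR4 null kidneys spread widely and the difference of -1.01 was not called (limma, adjusted p = 0.556 over probe sets). The other 2 probe sets were under the filter on low signals, with no signal above 41.4 on any array. Which probe sets lie inside the deleted part was not determined here, and 1418162_at was singled out after its values were seen.

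**Figure D1:**
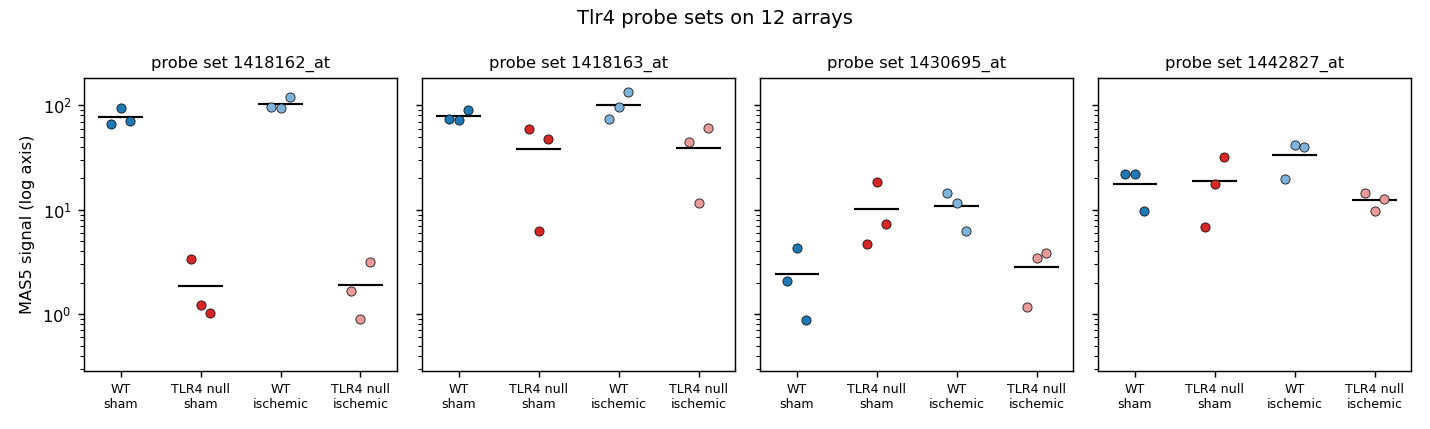
Signals of the 4 Tlr4 probe sets (log axis) on each of the 12 arrays by genotype and surgery, 1 point per kidney, with a bar at the group mean. On 1418162_at every TLR4 null array lies at 3.38 or below and every wild-type array at 65.6 or above.

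In sham kidneys 45 of 14316 genes were called, which is 0.314% of those tested. Of these, 32 were lower in TLR4 null (0.224%) and 13 were higher (0.0908%), while the median difference of all genes was -0.01. By at least 2-fold, 16 called genes were lower and 3 higher. Genes of cell division and collagens led the lower side (Mki67, Cdk1, Birc5, Col1a1), and Cyp2b10, Azgp1 and Cyp4a12a led the higher side. All 45 called genes had groups that did not overlap, as did 8.62% of all genes on the lower side and 8.12% on the higher side. At an unadjusted p under 0.05 the comparison held 1337 genes, 9.34% of those tested.

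**Figure D2:**
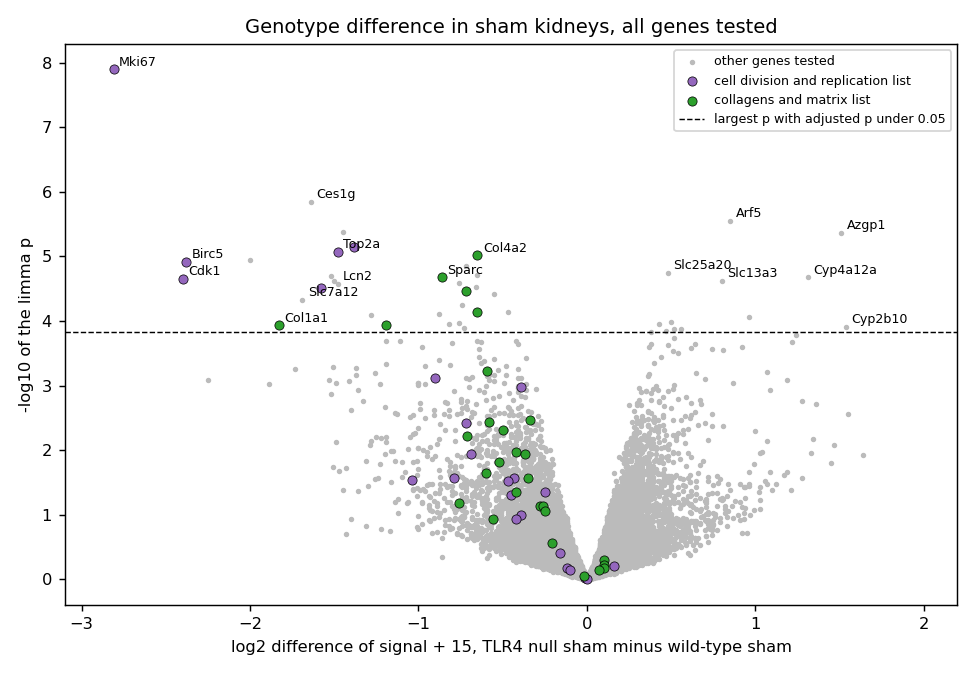
Genotype difference of each of 14316 genes in sham kidneys (log2 scale, TLR4 null minus wild type) against -log10 of its limma p, with cell division and matrix genes coloured. Mki67 lies at -2.81 and stands highest, called cell division and matrix genes lie only on the left, and Azgp1, Cyp4a12a and Cyp2b10 lie farthest right among the called genes.

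The direction of all 45 genes was kept in every one of 21 alternative analyses in which they could be tested. Their groups did not overlap, so leaving out a kidney or changing the pseudocount could not reverse a direction on the same probe set. The number called, however, rested on single kidneys. Leaving out wild-type kidney 1, 2 or 3 left 2, 4 and 30 of the 45 called, and leaving out TLR4 null kidney 1, 2 or 3 left 9, 14 and 5 (limma). Without a trend in the variance model 4 genes were called. Mki67 and Ces1g were the 2 genes called in each of the 21 alternatives.

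Genes of cell division and DNA replication were lower in TLR4 null sham kidneys. Of 29 listed genes 24 were measured, 6 fell and 0 rose, against 0.224% and 0.0908% of all genes. The median of the 24 was -0.46 and 23 of them lay below 0, where 51.6% of all genes did. Those that fell act in mitosis (Mki67, Cdk1, Ccnb2, Birc5), in untangling DNA (Top2a) and in making deoxynucleotides (Rrm2).

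Mki67, which encodes the proliferation marker Ki-67, had signals of 161, 188 and 153 in wild type and of 8.94, 18.1 and 6.82 in TLR4 null. All 3 TLR4 null values were near or below 14.6, the 20th percentile of all signals, and so were close to the floor of the array. The difference was -2.81 ± 0.25 (limma, adjusted p = 0.000184). Its size depends on the pseudocount because of that floor, at -3.88 with 1 added in place of 15 and -1.67 with 60 added, and it was called with each. Cdk1, the kinase that drives entry into mitosis, gave 224, 253 and 110.0 against 57.2, 11.3 and 13.6. Wild-type kidney 3 was the lowest of its group and still lay above every TLR4 null kidney, with a difference of -2.40 ± 0.40 (limma, adjusted p = 0.0181). Birc5 encodes survivin, a subunit of the chromosomal passenger complex, and gave 227, 166 and 142 against 10.5, 62.1 and 10.0. TLR4 null kidney 2 was the highest of its group here, and the difference was -2.38 ± 0.37 (limma, adjusted p = 0.0173). TLR4 null kidneys near the floor affect these genes as well, with Cdk1 between -3.08 and -1.54 and Birc5 between -3.14 and -1.48 over the same pseudocounts.

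Ccnb2, a cyclin partner of Cdk1, gave 199.8, 190.0 and 130.3 in wild type and 52.3, 43.9 and 45.6 in TLR4 null. The TLR4 null kidneys lay close together, and the difference was -1.58 ± 0.27 (limma, adjusted p = 0.0189). Top2a, a topoisomerase, gave 221, 189.8 and 122 against 65.1, 37.8 and 57.4 and differed by -1.48 ± 0.22 (limma, adjusted p = 0.0172). Rrm2, a subunit of ribonucleotide reductase, gave 595, 573 and 373 against 163, 202 and 191 and differed by -1.38 ± 0.20 (limma, adjusted p = 0.0169). In all 3 genes wild-type kidney 3 was the lowest wild-type value, as it was for Mki67, Cdk1 and Birc5, and the genotypes did not overlap. The probe sets were 1426817_at for Mki67, 1448314_at for Cdk1, 1424278_a_at for Birc5, 1450920_at for Ccnb2, 1454694_a_at for Top2a and 1434437_x_at for Rrm2. Rrm2 lost its call when probe sets with names ending in _x_at or _s_at were left out.

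**Figure D3:**
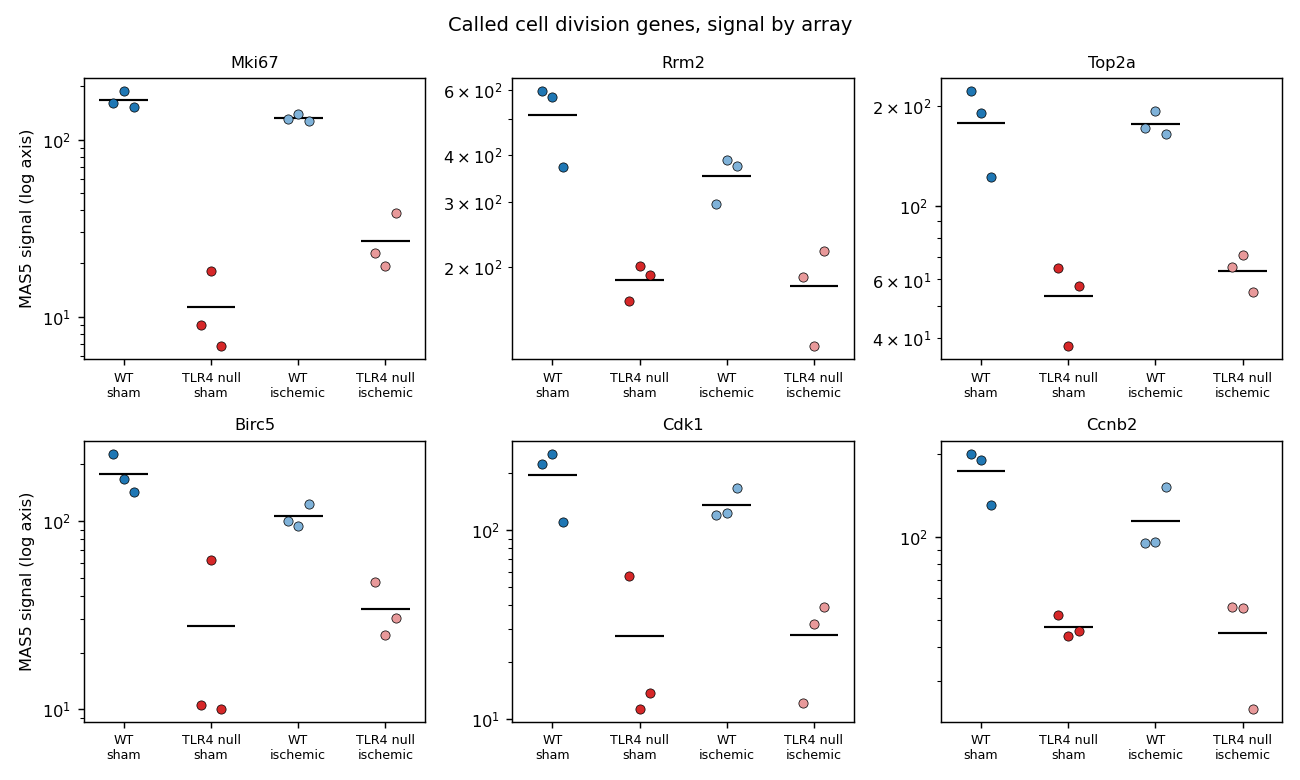
Signals (log axis) of the 6 called cell division genes on each of the 12 arrays by genotype and surgery, 1 point per kidney, with a bar at the group mean. The wild-type and TLR4 null sham points are separate for each gene, and wild-type sham kidney 3 is the lowest of its group for each.

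The Mcm genes of the replicative helicase and Pcna had smaller differences and were not called. Mcm5 differed by -0.90 ± 0.21 (limma, adjusted p = 0.111), and the other 5 measured Mcm genes lay between -0.45 and -0.16 and were not called. Pcna, the replication clamp, differed by -0.39 ± 0.10 (limma, adjusted p = 0.123), while the G1 cyclins Ccnd1 and Ccne1 differed by 0.00 ± 0.12 and -0.01 ± 0.31. The exception above 0 was Kif20b at 0.16 ± 0.32. Leaving out wild-type kidney 1, 2 or 3 left 1, 1 and 6 division genes called, and leaving out TLR4 null kidney 1, 2 or 3 left 3, 4 and 1. Ccna2 and Cdc20 were not called on the probe sets that stand for them but were lower on another, at -1.10 ± 0.16 and -1.56 ± 0.28 (limma, adjusted p = 0.0102 and 0.036 over probe sets).

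Promoters of many mitotic genes carry CCAAT boxes and the cell cycle genes homology region, abbreviated CHR, an element of cell-cycle-dependent transcription. The windows of 4 genes that fell are shown because they carry both. Each runs from 250 bases before to 50 bases after the annotated start (RefSeq, build GRCm38.p6), 5′ to 3′ on the gene's strand, which is the minus strand for all 4. Capitals mark each match to CHR (TTTGAA or its reverse complement TTCAAA) and to the CCAAT box (CCAAT or ATTGG). Mki67 lies at chr7:135716330-135716629, Cdk1 at chr10:69352863-69353162, Ccnb2 at chr9:70421505-70421804 and Top2a at chr11:99024140-99024439.
Mki67: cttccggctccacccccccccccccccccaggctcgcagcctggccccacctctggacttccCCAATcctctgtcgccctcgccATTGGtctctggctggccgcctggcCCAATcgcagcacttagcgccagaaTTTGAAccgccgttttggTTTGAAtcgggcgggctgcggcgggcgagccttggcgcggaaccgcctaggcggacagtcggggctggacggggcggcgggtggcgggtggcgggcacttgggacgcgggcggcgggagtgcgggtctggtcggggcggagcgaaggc
Cdk1: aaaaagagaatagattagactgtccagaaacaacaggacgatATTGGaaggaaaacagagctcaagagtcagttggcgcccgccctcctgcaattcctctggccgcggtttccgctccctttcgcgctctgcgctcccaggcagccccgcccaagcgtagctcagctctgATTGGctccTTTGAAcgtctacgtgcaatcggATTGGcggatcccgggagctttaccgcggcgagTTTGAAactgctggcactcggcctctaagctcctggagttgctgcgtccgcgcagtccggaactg
Ccnb2: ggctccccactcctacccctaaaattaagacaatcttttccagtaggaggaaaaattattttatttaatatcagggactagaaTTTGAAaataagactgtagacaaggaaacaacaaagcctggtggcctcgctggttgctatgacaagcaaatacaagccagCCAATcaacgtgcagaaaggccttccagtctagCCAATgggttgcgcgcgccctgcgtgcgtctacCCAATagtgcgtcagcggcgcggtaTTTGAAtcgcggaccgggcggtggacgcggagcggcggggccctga
Top2a: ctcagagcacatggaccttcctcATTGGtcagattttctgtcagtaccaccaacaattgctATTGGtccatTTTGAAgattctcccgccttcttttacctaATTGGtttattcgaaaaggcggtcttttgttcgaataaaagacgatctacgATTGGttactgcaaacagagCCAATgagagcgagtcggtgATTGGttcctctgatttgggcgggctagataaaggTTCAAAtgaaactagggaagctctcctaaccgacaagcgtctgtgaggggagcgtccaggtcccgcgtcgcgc
The Mki67, Cdk1 and Ccnb2 windows each held 2 CHR and 3 CCAAT matches, and the Top2a window held 2 and 6. The Rrm2 window held 1 CCAAT match and no CHR, and the Birc5 window held neither. Of the 20 windows of 19 measured division genes, 11 held CHR, 17 held CCAAT and 10 held both, which is 50% with both. Among 14606 windows of tested genes 12.4% held CHR, 37.0% held CCAAT and 4.7% held both, and among all 32851 windows 17.9%, 37.4% and 6.95% did. A match is only a description of the letters in the window.

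Several genes outside that list that fell also act in dividing cells. Ercc6l, a helicase of mitotic chromosomes, gave 89.3, 93.9 and 59.9 in wild type and 8.71, 15.2 and 3.47 in TLR4 null, a difference of -2.0 ± 0.31 (limma, adjusted p = 0.0173). Its TLR4 null signals too were near or below 14.6, so the size depends on the pseudocount, at -3.18 with 1 added and -1.02 with 60 added. Kif22, a chromosome-moving kinesin, gave 442, 336 and 192 against 87.4, 115 and 90.0, a difference of -1.52 ± 0.25 (limma, adjusted p = 0.0181). Pbk, a mitotic kinase, gave 302, 285 and 172 against 100.2, 79.2 and 64.6, a difference of -1.45 ± 0.21 (limma, adjusted p = 0.0123). In each of these genes the lowest wild-type kidney was again kidney 3. Tk1, the thymidine kinase of S phase, fell by 1.28 ± 0.24 on the log2 scale, and Pttg1, which encodes securin, fell by 0.76 ± 0.14 (limma, adjusted p = 0.0361 and 0.0428). Wild-type signals of Tk1 were 233, 235 and 169, and TLR4 null signals were 69.8, 125 and 52.3. These 5 genes were grouped after their values were seen.

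Collagen and matrix genes were also lower in TLR4 null sham kidneys. All 28 listed genes were measured, of which 6 fell and 0 rose, against 0.224% and 0.0908% of all genes. Their median was -0.46, with 24 of 28 below 0, and in 17 of 28 every TLR4 null kidney lay below every wild-type kidney, where 8.62% of all genes did. The 6 were fibrillar collagens of the interstitium (Col1a1, Col3a1), both chains of the main basement membrane collagen (Col4a1, Col4a2), a chain of microfibrillar collagen VI (Col6a3) and the collagen-binding glycoprotein Sparc.

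Col1a1 gave 205, 250.4 and 122 in wild type and 26.3, 61.4 and 41.3 in TLR4 null. Signals varied within both genotypes but did not overlap, and the difference was -1.83 ± 0.35 (limma, adjusted p = 0.0428). Col3a1, its usual partner in interstitial fibrils, gave 1482, 1876 and 1214 against 710.0, 673 and 577 and differed by -1.19 ± 0.23 (limma, adjusted p = 0.0428). Sparc was bright, with 3341, 4058 and 3008 against 1962, 1834 and 1867, and the TLR4 null kidneys lay within a narrow band. Its difference was -0.86 ± 0.14 (limma, adjusted p = 0.0181). Col6a3 gave 379, 486 and 412 against 241, 233 and 279 and differed by -0.72 ± 0.12 (limma, adjusted p = 0.0195).

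Both chains of collagen IV fell. Col4a1 gave 3127, 3661 and 2529 in wild type and 2060.1, 2004 and 1783 in TLR4 null, and Col4a2 gave 1800.2, 2089 and 1598 against 1130.3, 1214 and 1119.7. Wild-type kidney 2 was the highest and kidney 3 the lowest of its group for both. The differences were -0.65 ± 0.12 and -0.65 ± 0.10 (limma, adjusted p = 0.0352 and 0.0172). The other Col4a1 probe set differed by -0.46 ± 0.12 and was not called (limma, adjusted p = 0.189 over probe sets). Both genes start from a shared stretch of chromosome 8 on opposite strands, with annotated starts 21 bases apart and windows that overlap by 78 bases. The Col4a2 window is shown because it holds the stretch where both genes start, plus strand, chr8:11312555-11312854 (RefSeq, build GRCm38.p6), with its CCAAT match in capitals.
Col4a2: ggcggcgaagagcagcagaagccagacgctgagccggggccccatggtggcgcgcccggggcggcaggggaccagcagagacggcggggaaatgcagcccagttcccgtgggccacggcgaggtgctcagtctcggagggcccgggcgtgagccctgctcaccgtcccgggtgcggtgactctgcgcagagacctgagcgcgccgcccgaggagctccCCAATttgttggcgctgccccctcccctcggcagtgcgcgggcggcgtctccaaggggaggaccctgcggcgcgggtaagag
Neither window of the pair held CHR.

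**Figure D4:**
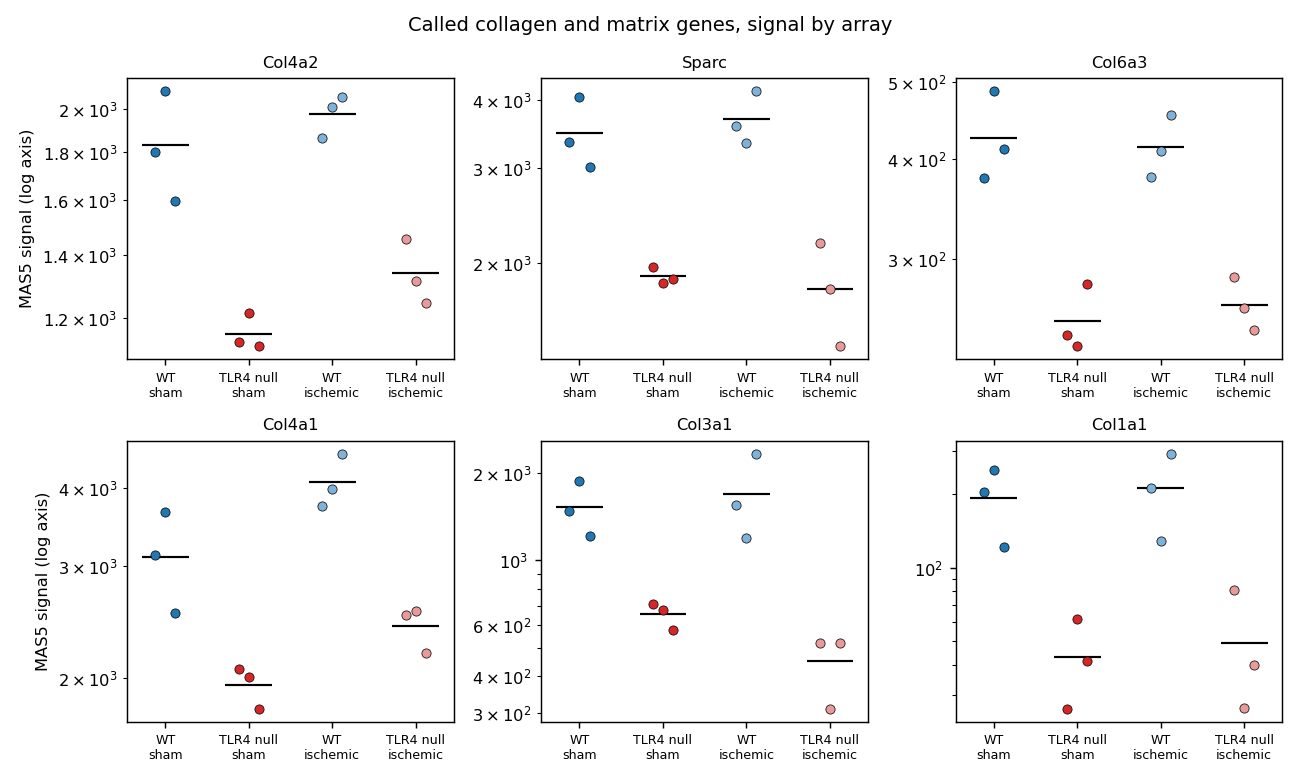
Signals (log axis) of the 6 called collagen and matrix genes on each of the 12 arrays by genotype and surgery, 1 point per kidney, with a bar at the group mean. TLR4 null sham kidneys lie below every wild-type sham kidney for each gene, and Col4a1 and Col4a2 share the order of their wild-type sham kidneys.

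Other collagens pointed the same way without being called, among them Col6a2 at -0.59 ± 0.14 (limma, adjusted p = 0.101), Col6a1 at -0.71 ± 0.22 and Col5a1 at -0.58 ± 0.17. Col1a2, the second chain of collagen I, was not called on its brightest probe set (-0.52 ± 0.19) but fell by 0.98 ± 0.17 on another (limma, adjusted p = 0.0261 over probe sets). The 4 matrix genes above 0 were Lum, Bgn, Hspg2 and Col8a1, at 0.07 to 0.10. Fstl1, a secreted glycoprotein related to Sparc that was not on the list, fell by 0.71 ± 0.12 on the log2 scale (limma, adjusted p = 0.0195), from 659, 805 and 659 to 453, 414 and 408. In whole kidney, fewer cells of a type and less RNA per cell cannot be told apart.

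Markers of other cell types were read beside the matrix genes. Summed signals of 18 endothelial markers lay between 7690 and 9108 in wild type and between 6871 and 7179 in TLR4 null, and those of 15 monocyte and macrophage markers between 3953 and 4137 and between 3204 and 3484. The 8 urothelial markers had sums between 1752 and 2141 in wild type and between 1477 and 1699 in TLR4 null. In these sums of all 3 lists every TLR4 null kidney was below every wild-type kidney. The mean log2 level of the urothelial markers differed by -0.434 (exact permutation test, two-sided, p = 0.2, adjusted p = 0.6). The mean log2 differences of the endothelial and the macrophage list were -0.162 and -0.277 (exact permutation test, two-sided, p = 0.1 each, the smallest that 3 against 3 can give, adjusted p = 0.6 over 15 array measures). Adipocyte markers, which can come from fat left on the kidney, had summed signals between 24252 and 37409 in wild type and between 22149 and 27175 in TLR4 null over 11 genes. The mean log2 level of the fat markers was 9.735 ± 0.38 (SD, n = 3) against 9.122 ± 0.398 (SD, n = 3), with overlap (exact permutation test, two-sided, p = 0.2, adjusted p = 0.6). No gene of these marker lists was listed at 0, and 0 of them were called in sham kidneys. With the fat level as a covariate 32 genes were called in all, against 45 without it. The 32 included 2 of 28 matrix genes and 6 of 24 division genes, and the median of the matrix list was -0.40. Leaving out wild-type kidney 1, 2 or 3 left 0, 0 and 5 matrix genes called, and leaving out TLR4 null kidney 1, 2 or 3 left 0, 1 and 0. The part of endothelial, macrophage and urothelial content in the matrix difference was not tested.

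Markers of tubular injury and of the acute phase lay mostly below their wild-type levels, although few passed the test. Among 23 measured acute phase and STAT3 genes 2 fell (Lcn2, Stat3) and 0 rose, against 0.224% and 0.0908% of all genes. The median was -0.44 and all 23 measured genes lay below 0, where 51.6% of all genes did. Among 20 measured tubular injury markers 1 fell (Lcn2) and 0 rose, the median was -0.44, and 19 lay below 0. Lcn2, which encodes the injury biomarker NGAL, gave 625, 527 and 663 in wild type and 186, 154 and 303 in TLR4 null. The genotypes were well separated, and the difference was -1.48 ± 0.25 (limma, adjusted p = 0.0181). Stat3, the transcription factor of IL-6 family signalling, gave 935, 1022 and 931 against 739.8, 678 and 658, a small and tight difference of -0.47 ± 0.09 (limma, adjusted p = 0.0352). Both calls were sensitive to single kidneys. Leaving out 1 kidney at a time kept Lcn2 in 1 of 6 analyses, that without TLR4 null kidney 3, and Stat3 in 0.

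Other members showed where the variation lay. Hp, which encodes haptoglobin, differed by -1.43 ± 1.05, and Orm1, which encodes an acid glycoprotein of plasma, by -0.62 ± 0.66, the least precise values of the list. Mt1, a metallothionein, differed by -0.42 ± 0.09 and lay just outside the threshold (limma, adjusted p = 0.0571). Timp1, a protease inhibitor, differed by -0.69 ± 0.19 and Clu, which encodes clusterin, by -0.36 ± 0.09 (limma, adjusted p = 0.194 and 0.117). The KIM-1 gene Havcr1 differed by -0.03 ± 0.53. Neutrophil markers, to which Lcn2 also belongs, had sums between 1147 and 1473 in wild type and between 588 and 886 in TLR4 null over 8 genes, and 1 of the 8 fell, Lcn2 itself. Without Lcn2 the sums of the other 7 overlapped, between 603 and 811 in wild type and between 434 and 699 in TLR4 null. The mean log2 level of the 8 genes overlapped as well (exact permutation test, two-sided, p = 0.2, adjusted p = 0.6). Emp1, an epithelial membrane protein, fell by 0.76 ± 0.13 on the log2 scale, and Prom1, which encodes the progenitor marker CD133, fell by 0.66 ± 0.11 (limma, adjusted p = 0.0181 and 0.0189). Signals of Prom1 were 1577, 1689 and 1379 in wild type and 992, 1136 and 819.5 in TLR4 null.

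Apart from the single Tlr4 probe set, no gene on the lists of the receptor's own pathway was called in sham kidneys. Of 9 measured genes of the receptor complex 0 were called in limma, with a median of -0.26. An unadjusted p under 0.05 was reached by 2 of them, against 9.34% of all genes. The co-receptors Cd14 and Ly96 differed by -0.12 ± 0.16 and -0.06 ± 0.20, and the lipopolysaccharide carrier Lbp by -0.66 ± 0.42. The related receptor Cd180 and its partner Ly86 differed by -0.26 ± 0.22 and -0.40 ± 0.19, the amplifying receptor Trem1 by -0.87 ± 0.35, and the chaperones of Toll-like receptors Hsp90b1 and Cnpy3 by 0.15 ± 0.14 and 0.24 ± 0.17. No call was made among 18 adaptors and kinases (median -0.01), 9 other Toll-like receptors (median -0.11) and 18 NF-kB subunits and feedback genes (median 0.02), where 1, 0 and 1 genes had an unadjusted limma p under 0.05. Chemokines had a median of -0.19 over 23 genes with 0 called in limma and 6 at an unadjusted p under 0.05, against 9.34% of all genes. Pf4, a chemokine outside that list, was called lower and is described below. The neutrophil chemokine Cxcl1 differed by -0.91 ± 0.25 and the monocyte chemokine Ccl2 by -0.84 ± 0.22 (limma, adjusted p = 0.189 and 0.158). Among 17 cytokines and growth factors 0 were called, with Il6 at -0.52 ± 0.37 and Il1b at -0.09 ± 0.20.

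Interferon-stimulated genes lay mostly below 0. Of 33 measured genes 0 rose and 0 fell in limma, with 12 at an unadjusted p under 0.05 against 9.34% of all genes. The median was -0.37, and 29 lay below 0, where 51.6% of all genes did. With only the 6 sham arrays 1 of the 33 was called, and with a replicate block on those arrays 2 were. These fits called 82 and 95 of all genes, against 45 in the main fit. In 15 of the 33, against 8.62% of all genes, every TLR4 null sham kidney was below every wild-type sham kidney. The largest differences were in Ifit2 (-1.19 ± 0.39), the immunity-related GTPase Iigp1 (-0.95 ± 0.33), Gbp2 (-0.82 ± 0.32) and the antiviral gene Rsad2 (-0.77 ± 0.22), with limma adjusted p from 0.188 to 0.394. In ischemic kidneys, a separate set of 6 arrays, 6 of the 33 fell, against 0.517% of all genes there, and all 33 measured genes lay below 0, with a median of -0.60. Genes of antigen presentation had a median of -0.21 over 22 genes with 20 below 0 and 0 called, among them the invariant chain Cd74 at -0.36 ± 0.11 (limma, adjusted p = 0.243).

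Among the 13 genes that rose, Cyp2b10, Azgp1 and Cyp4a12a differed most. Azgp1, which encodes the secreted lipid-mobilising glycoprotein zinc-alpha-2-glycoprotein, gave 556, 377 and 915 in wild type and 1603, 1756 and 1649 in TLR4 null. TLR4 null kidneys lay close together while wild-type kidneys varied, and the difference was 1.51 ± 0.21 (limma, adjusted p = 0.0123). Cyp2b10, a drug-metabolising cytochrome P450 of the CAR pathway, gave 135, 59.9 and 123 against 278, 279.6 and 428 and differed by 1.54 ± 0.30 (limma, adjusted p = 0.0435). Cyp4a12a, a male-predominant fatty acid hydroxylase that makes 20-HETE, gave 622, 305 and 657 against 1189, 1244 and 1370.5 and differed by 1.31 ± 0.22 (limma, adjusted p = 0.0181). In all 3 genes wild-type kidney 2 was the lowest array. Of 6 analyses that each left out 1 sham kidney, Azgp1 kept its call in 4, Cyp4a12a in 2 and Cyp2b10 in 0.

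Proximal tubule transporters included 2 that rose and 0 that fell among 46 measured, against 0.0908% and 0.224% of all genes. The median was 0.11 and 32 lay above 0, where 48.4% of all genes did. Slc13a3, the basolateral dicarboxylate transporter, gave 3936, 3154 and 3676 in wild type and 6670.4, 6257 and 5857 in TLR4 null, and differed by 0.80 ± 0.13 (limma, adjusted p = 0.0181). Slco1a6, an organic anion transporter, gave 3741, 2893 and 3236 against 4718, 5196 and 4590.5 and differed by 0.56 ± 0.11 (limma, adjusted p = 0.0447). Its relative Slco1a1 had a larger difference, 1.19 ± 0.28, but was not called (limma, adjusted p = 0.113). Leaving out wild-type kidney 3 kept 1 of these 2 calls, and leaving out any other single kidney kept 0.

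Fatty acid oxidation genes lay mostly above 0. Of 29 measured, 2 rose (Slc25a20, Cyp4a12a) and 0 fell, against 0.0908% and 0.224% of all genes. The median was 0.12, 25 lay above 0 where 48.4% of all genes did, and in 12 every TLR4 null kidney was above every wild-type kidney, against 8.12% of all genes. Slc25a20, the carnitine-acylcarnitine carrier of mitochondria, gave 2195, 2121 and 2198 in wild type and 2813, 3304 and 3021 in TLR4 null. The wild-type values were almost equal, and the difference was 0.48 ± 0.08 (limma, adjusted p = 0.0181). Vnn1, a pantetheinase and PPARA target, differed by 0.37 ± 0.08 and missed the threshold (limma, adjusted p = 0.0596), and Cpt1a by 0.13 ± 0.08. The 4 genes below 0 included Angptl4 at -0.36 ± 0.09 and Cyp4a14 at -0.43 ± 0.29 (limma, adjusted p = 0.126 and 0.735). For Angptl4 every TLR4 null kidney lay below every wild-type kidney. Of the 2 calls, Slc25a20 and Cyp4a12a, 0, 1 and 2 were kept without wild-type kidney 1, 2 or 3. Without TLR4 null kidney 1, 2 or 3, 1, 0 and 0 were kept. In ischemic kidneys the median of the same 29 genes was -0.05. Outside the list, the peroxisomal thiolase Acaa1b (0.38 ± 0.07) and the fatty aldehyde dehydrogenase Aldh3a2 (0.50 ± 0.10) rose (limma, adjusted p = 0.0469 and 0.0428).

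Of 15 measured genes that respond to androgen in mouse kidney, 1 rose (Cyp4a12a) and 1 fell (Slc7a12), against 0.0908% and 0.224% of all genes. The median was 0.24 and 13 lay above 0, where 48.4% of all genes did. The list does not separate genes that androgen raises from genes that it lowers. Its counts and median therefore give no direction of an androgen response. Slc7a12, an amino acid transporter, gave 375, 566 and 297 in wild type and 134, 100.1 and 108 in TLR4 null. Wild-type values varied but lay well above the TLR4 null values, and the difference was -1.69 ± 0.30 (limma, adjusted p = 0.025). Kap, the androgen-regulated kidney protein, differed by 0.14 ± 0.10, and Odc1, the polyamine enzyme ornithine decarboxylase, by 0.44 ± 0.10 (limma, adjusted p = 0.76 and 0.0762). Slc7a12 kept its call in 1 of 6 analyses that left out a kidney, that without wild-type kidney 3. Cyp4a12a kept its call in 2 of the 6, those without wild-type kidney 2 or 3.

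Some metabolic genes went the other way. Ces1g, a carboxylesterase that hydrolyses lipids and drugs, gave 402, 222 and 210.3 in wild type and 76.1, 73.6 and 76.6 in TLR4 null. The TLR4 null kidneys were nearly identical, and the difference of -1.64 ± 0.21 was called whichever kidney was left out (limma, adjusted p = 0.0101 with all kidneys). Cyp2d26, another cytochrome P450, gave 3569, 4036 and 3807 against 2702, 2512 and 2549 and differed by -0.55 ± 0.10 (limma, adjusted p = 0.0212). Of 29 measured P450 genes 2 rose (Cyp2b10, Cyp4a12a) and 1 fell (Cyp2d26), against 0.0908% and 0.224% of all genes, with a median of 0.08. Of these 3 calls 0, 1 and 1 were kept without wild-type kidney 1, 2 or 3, and 0 without any single TLR4 null kidney. Cyp27b1, the kidney enzyme that activates vitamin D, differed by -1.49 ± 0.36 and was not called in sham kidneys (limma, adjusted p = 0.117). Apoc3, an apolipoprotein of triglyceride-rich particles, fell by 0.72 ± 0.11 on the log2 scale (limma, adjusted p = 0.0181), from 926, 853 and 857 to 456, 532 and 598, and kept its call in 2 of the 6 analyses that left out a kidney.

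The remaining called genes belonged to no list. Arf5, a small GTPase of membrane traffic, gave 201, 199 and 216 in wild type and 387, 418 and 347 in TLR4 null, differed by 0.85 ± 0.12 (limma, adjusted p = 0.0123) and was called in 19 of the 21 alternatives. Cpe, the carboxypeptidase that trims peptide hormones, gave 957, 783 and 629 against 1305, 1763 and 1563 and differed by 0.96 ± 0.18. Over the 21 alternatives Cpe ran from 0.21 to 1.11, and it was not called with the mean of its probe sets. Foxo1, a transcription factor of fasting metabolism, differed by 0.47 ± 0.09, the adhesion molecule Cadm1 by 0.52 ± 0.10 and the thioesterase family member Them7 by 0.43 ± 0.08 (limma, adjusted p = 0.0379 for Cpe and 0.0464, 0.0447 and 0.0428 for the others). When 1 kidney was left out, Arf5 kept its call in 4 of 6 analyses and the other 4 genes in 0.

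On the lower side, Cdc42ep2, an effector of the GTPase Cdc42, gave 122, 154 and 71.7 against 45.1, 17.7 and 30.7 and differed by -1.50 ± 0.25 (limma, adjusted p = 0.0181). Cd93, a lectin of endothelium and myeloid cells, gave 879.5, 940.0 and 751 against 461, 472 and 591, and Pf4, a chemokine of platelets and macrophages, gave 215, 215 and 219 against 148, 104 and 127. Neither overlapped between genotypes, and they differed by -0.74 ± 0.13 and -0.73 ± 0.14 (limma, adjusted p = 0.0287 and 0.0447). Tmsb10, an actin-sequestering thymosin, differed by -0.65 ± 0.11, the defensin Defb42 by -0.88 ± 0.16 and Cox6b2, a testis form of a cytochrome oxidase subunit, by -0.82 ± 0.16 (limma, adjusted p = 0.0181, 0.036 and 0.0428). Leaving out 1 kidney at a time kept Cdc42ep2 in 2 of 6 analyses, Cd93, Tmsb10 and Cox6b2 in 1 each, and Pf4 and Defb42 in 0.

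Genes next to Tlr4 were examined because the strains differ at that locus. Of the 20 genes nearest to Tlr4, 10 on each side, Pappa and Trim32 were measured. Pappa, a protease of IGF-binding proteins, differed by -0.56 ± 0.19 and Trim32, a ubiquitin ligase, by 0.13 ± 0.17 (limma, adjusted p = 0.298 and 0.902). In the analysis of all 30304 probe sets, 54 were called (0.178%), 43 of them lower (0.142%) and 11 higher (0.0363%). The largest difference of any probe set belonged to 1452426_x_at, which has no single gene name here. It gave 2868, 3025 and 3145 in wild type and 175, 171 and 124 in TLR4 null, a difference of -4.15 ± 0.21 (limma, adjusted p = 1.66e-07), and it differed by -3.87 ± 0.21 in ischemic kidneys. A second unnamed probe set, 1427798_x_at, gave 456, 546 and 414 against 83.5, 95.8 and 102 and differed by -2.16 ± 0.24 (limma, adjusted p = 0.0016).

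Among the 54 called probe sets, 35 belonged to called genes, 8 had no single gene name and 11 belonged to genes not called on the probe set that stands for them. Those 11 genes were Tlr4, Ccna2, Cdc20 and Col1a2, described above, and Ttr, Ctse, Lipa, Taf4b, Myo9b, Pisd-ps3 and D17H6S56E-5. Ttr, which encodes the thyroxine carrier transthyretin, gave 3356, 2849 and 2288 in wild type and 1209, 1435 and 1294 in TLR4 null and differed by -1.09 ± 0.16 (limma, adjusted p = 0.0102). Ctse, which encodes the protease cathepsin E, gave 147, 406 and 359 against 57.2, 58.6 and 55.9 and differed by -2.03 ± 0.32 (limma, adjusted p = 0.0159). Of the 45 called genes 18 had several probe sets past the filter. In 13 of the 18 all probe sets pointed the same way, but of the 31 further probe sets of these genes 2 were called. Averaging the probe sets of each gene left 31 of the 45 called. Those lost were Sparc, Col1a1, Top2a, Pttg1, Slc13a3, Slco1a6, Slc25a20, Tmsb10, Cadm1, Cpe, Foxo1, Emp1, Cd93 and Stat3. Over the 21 alternatives Cpe ran from 0.21 to 1.11 and Foxo1 from 0.25 to 0.53. Emp1 ran from -0.83 to -0.32, Cd93 from -0.85 to -0.39 and Stat3 from -0.52 to -0.27. Leaving out probe sets with names ending in _x_at or _s_at kept 37 calls among the 42 called genes still tested. Rrm2, Cyp2b10, Pttg1, Acaa1b and Foxo1 lost theirs.

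The genotype difference was compared with that in the 6 ischemic kidneys, which are other animals but share the estimate of spread. The 3 TLR4 null ischemic arrays stood apart in the signal of an 18S ribosomal RNA control, at 2287, 2646 and 1410.4 against 304 to 574 on the other 9 arrays, and its part in the ischemic values was not tested. After ischemia 94 genes were called (0.657%), 74 lower (0.517%) and 20 higher (0.14%). Of the 45 genes called in sham kidneys 43 had the same sign after ischemia and 19 were called in both. The 19 make up 42.2% of the sham calls and 20.2% of the ischemic calls. Mki67 differed by -1.84 ± 0.25 after ischemia (limma, adjusted p = 0.00487), Col3a1 by -1.85 ± 0.23, Sparc by -1.05 ± 0.14, Azgp1 by 1.42 ± 0.21 and Arf5 by 0.97 ± 0.12. Of the division list 4 of 24 fell after ischemia, with a median of -0.50, and of the matrix list 12 of 28, with a median of -0.58.

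Other sham differences were small after ischemia. Slc7a12 differed by -0.02 ± 0.30, Slc13a3 by 0.05 ± 0.13, Slc25a20 by -0.05 ± 0.08 and Tk1 by -0.24 ± 0.24 in ischemic kidneys, and none of these was called there. The test of the difference itself, the interaction of genotype and surgery, called 0 of 14316 genes in limma (0%), with 910 at an unadjusted p under 0.05 (6.36%) and a smallest adjusted p of 0.244. Of the 45 sham genes 17 had an unadjusted interaction p under 0.05, and none of them passed the correction. These 45 were chosen by their sham difference, which is itself part of the interaction. The 17 can therefore not be set against the 6.36% of all genes. The 2 genes with the other sign after ischemia, Apoc3 (0.27 ± 0.11) and Slc25a20, were not called there.

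**Figure D5:**
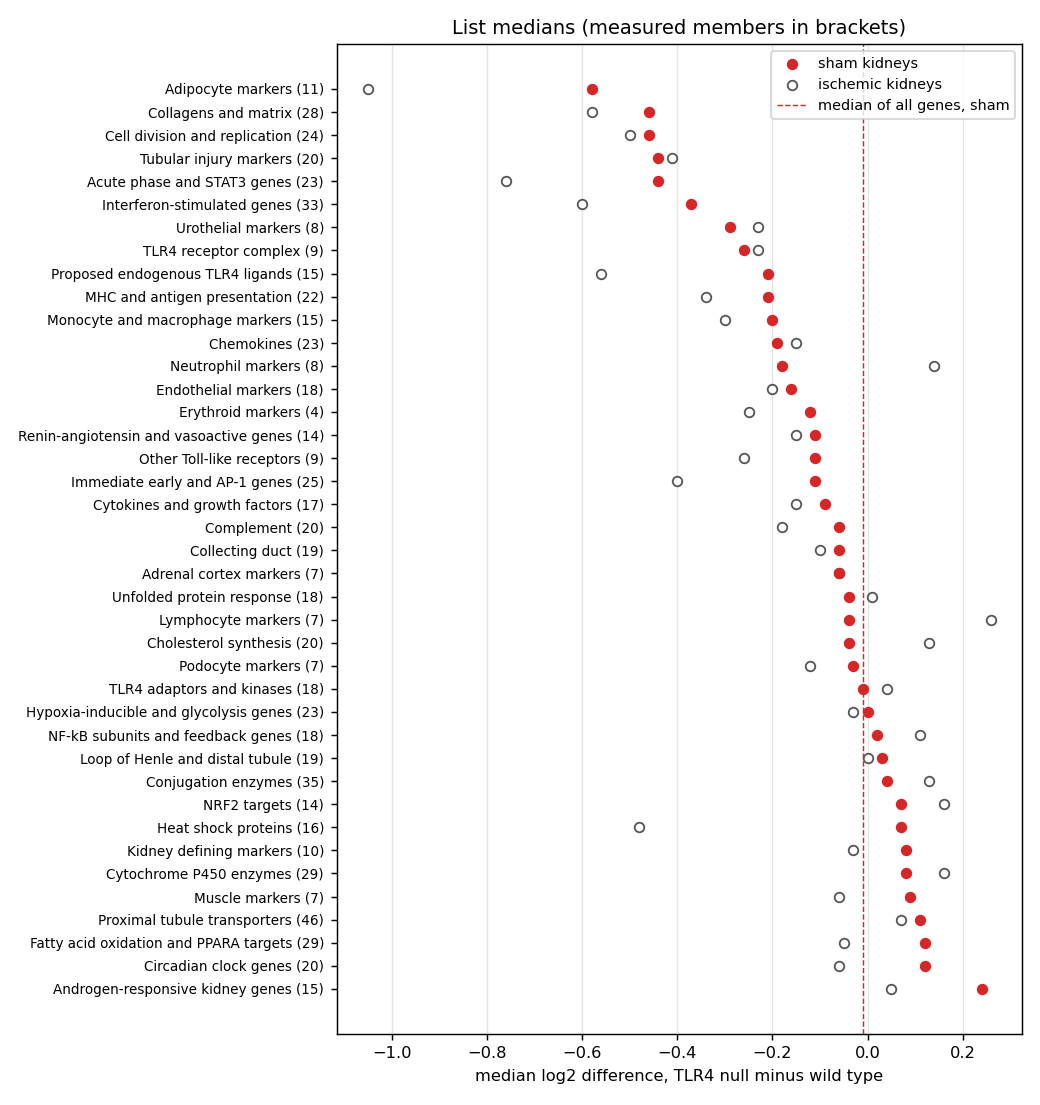
Median genotype difference (log2 scale, TLR4 null minus wild type) of each gene list with at least 4 measured genes, in sham kidneys (filled points) and ischemic kidneys (open points), with the number of measured genes in brackets. The dashed line is the median of all genes in sham kidneys, -0.01. Adipocyte, matrix, division, tubular injury and acute phase lists lie farthest left in sham kidneys and the androgen-responsive list farthest right.

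The lists were chosen with earlier results of these data known, which limits any ranking of them. Across the 40 lists, the matrix and division lists held the most calls, with 6 each. The adipocyte list had the lowest median, -0.58 over 11 genes, with 0 called and standard errors up to 1.12 (Ucp1). Lists of the nephron other than the proximal tubule stayed near the median of all genes, with 19 loop of Henle and distal tubule genes at 0.03, 19 collecting duct genes at -0.06 and 7 podocyte markers at -0.03, each with 0 called. Heat shock proteins (16 genes, 0.07), unfolded protein response genes (18, -0.04), hypoxia-inducible and glycolysis genes (23, 0.00), NRF2 targets (14, 0.07), cholesterol synthesis genes (20, -0.04) and circadian clock genes (20, 0.12) had 0 calls each in sham kidneys. Array quality measures of the sham kidneys overlapped between genotypes. The Gapdh 3′ over 5′ ratio was 0.6821 ± 0.0177 (SD, n = 3) in wild type and 0.6852 ± 0.0218 (SD, n = 3) in TLR4 null (exact permutation test, two-sided, p = 0.9, adjusted p = 0.964).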

How the data were processed

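Values for 45101 probe sets, including 64 controls, were deposited for the 12 arrays. They are linear signal intensity that the authors made with MAS5, per the submitters' processing notes, and each array has a trimmed mean of 250.0. That scaling was kept. The MAS5 version is not given in the sources used here.

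A probe set entered the test (30304 did) when 3 or more of the 12 arrays gave it a signal over their 40th percentile. In the platform annotation 34945 probe sets have 1 gene, 932 have several and 9160 have none. Where a gene had several probe sets, the brightest on average over all arrays stood for it, which left 14316 genes. limma 3.58.1 in R 4.3.3 (lmFit, eBayes with trend) fitted the means of 4 groups on all 12 arrays (8 residual degrees of freedom). Tests were two-sided with Benjamini-Hochberg adjustment over all genes, and the step was tested on simulated data. Figures used matplotlib 3.10.9 in Python 3.11.15. The rule for named genes took each Tlr4 probe set, the 14 largest rises and falls among called genes, in each list up to 3 genes of smallest p, the receptor complex and the measured neighbours of Tlr4. Other genes named were chosen after their values were seen. The groups, gene lists and tests were chosen with earlier results of these data known. The arrays, 3 per group, limit the precision of each value.

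Same-numbered wild-type and TLR4 null sham kidneys had deviations that correlated at 0 to 0.05, so the replicate numbers were not taken to pair the mice. Alternatives covered normalization, pseudocount, filter, probe set choice, variance model, array weights, the replicate block, a fat covariate and leaving out each sham array. Some genes of the lists are not analysed here.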

Additional observations from a re-analysis of the deposited data

Results flagged for a closer look

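Apoc3 had differences of opposite sign in sham and ischemic kidneys. In sham kidneys it gave 926, 853 and 857 in wild type and 456, 532 and 598 in TLR4 null, a difference of -0.72 ± 0.11, while in ischemic kidneys the difference was 0.27 ± 0.11 and was not called (limma, adjusted p = 0.377). The difference between surgeries was 0.99 ± 0.16 with an unadjusted p of 1.95e-05, and it did not pass adjustment over all genes (limma, adjusted p = 0.244). Every TLR4 null sham kidney lay below, and every TLR4 null ischemic kidney above, the wild-type kidneys of its surgery.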

How the results depend on the processing

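With all settings as reported, 13 genes were higher, 32 lower, 94 called in ischemic kidneys and 54 probe sets called in sham kidneys, with 6 division and 6 matrix genes lower. Median scaling of each array gave 7 higher, 15 lower and 2 matrix genes, and it moved the median of all genes from -0.01 to 0.04. Without the filter on low values 7 were higher, 3 matrix genes were lower and 47 genes were called in ischemic kidneys, and averaging all probe sets of a gene gave 7 higher. eBayes without the trend gave 1 higher, 3 lower, 1 division and 0 matrix genes, and 20 in ischemic kidneys. Array weights gave 52 higher, 107 lower and 164 in ischemic kidneys, and the 6 sham arrays alone gave 31 higher and 51 lower. The fat marker level as a covariate gave 6 higher, 2 matrix genes and 48 in ischemic kidneys. The share of calls that were higher was 28.9% as reported, 17.5% with the mean of probe sets and 18.8% with the fat covariate. The cause of these shifts was not tested.

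A block for the replicate number gave 6 higher (18.2% of calls), 27 lower and 61 in ischemic kidneys over 12 arrays, and 27 higher and 68 lower over the 6 sham arrays. It left 6 and 7 division genes and 4 and 7 matrix genes lower. Same-numbered sham kidneys correlated at 0, 0.05 and 0 in their deviations, so the numbers gave no pairing.

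Leaving out 1 sham kidney gave 0 to 6 higher and 2 to 31 lower genes, 1 to 6 division genes, 0 to 5 matrix genes, 9 to 39 probe sets and 67 to 93 genes in ischemic kidneys. The highest adjusted p of the 45 genes was 0.128 to 0.239 in these analyses (limma). The interaction stayed at 0 calls in each analysis that tested it. No result reversed, but leaving out a kidney could not reverse any of the 45 genes on the same probe set, as their groups did not overlap. Single-gene results kept their side of the threshold in 2787 cases, lost it in 354 and gained it in 28.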
